A study of Mus musculus with 6 samples.

Results

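The genes described here encode the machinery that presents peptides on MHC class I molecules, namely *H2-K1*, *H2-D1*, *B2m*, *Tap1*, *Tap2*, *Tapbp*, *Psmb8*, *Psmb9*, *Psmb10* and the class I transactivator *Nlrc5*. They were listed by name, and each gene was read from the brightest of the array rows that the annotation gives to it alone. Of the 10 genes, 8 had such a row, out of 19752 genes with one. *H2-K1* and *H2-D1* are annotated together, with LOC547349, on 2 rows, and these rows were followed under both names. The row that lists *H2-K1* first is called row A, and the row that lists *H2-D1* first is called row B. RNA came from mature (Vα2hi CD24lo) CD4 SP (single-positive) thymocytes. They were sorted from mice with the OT-II TCR transgene, whose product recognizes an MHC class II ligand. In dKO mice, floxed alleles of *Jmjd3* (*Kdm6b*) and *Utx* (*Kdm6a*), which encode demethylases of H3K27Me3, were removed by a Cre recombinase that *Cd4* sequences drive, and 3 arrays were hybridized with their RNA. The wild-type cells were from Cre-negative littermates, which per the study's methods carry floxed *Jmjd3* or *Utx* alleles and are otherwise OT-II transgenic as well, and filled 3 arrays. The *Cd4* promoter is active from the double-positive thymocyte stage. The deletion therefore also covers double-positive thymocytes and the CD8 cells derived from them, while thymic epithelial cells keep both genes. The study reports that mature CD4 SP thymocytes accumulated in dKO OT-II mice, and it ties this to limited egress from the thymus. The labels give the sex and age of no sample. They number biological replicates without saying that these were separate animals, and the p-values cover no more than the spread among these samples.

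Class I molecules consist of a heavy chain, encoded by *H2-K1* or *H2-D1*, and the light chain β2-microglobulin, and they carry peptides cut by the proteasome in the cytosol. *Tap1* and *Tap2* form the transporter that moves these peptides into the endoplasmic reticulum, where tapasin (*Tapbp*) holds empty class I molecules beside it. *Psmb8*, *Psmb9* and *Psmb10* encode the catalytic subunits that replace *Psmb5*, *Psmb6* and *Psmb7* in the immunoproteasome. *Nlrc5* binds no DNA itself, but acts through RFX, ATF/CREB and NF-Y proteins on the SXY module of class I promoters, and both *Nlrc5* and its targets are induced by interferons. Nearly all nucleated cells express class I molecules. The immunosubunits and *Nlrc5* are expressed mainly in cells of haematopoietic origin, T cells included, unless interferons induce them elsewhere.

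The targeted genes were examined first. *Kdm6a* had log2 values of 9.483, 9.401 and 9.583 on the dKO arrays, against 10.157, 10.113 and 10.205 on the wild-type arrays, while *Kdm6b* had 9.71, 9.85 and 9.86 on the dKO arrays, against 9.83, 9.90 and 9.97 on the wild-type arrays. Each value summarizes probes along a whole transcript, of which Cre removes some exons only, so that these values do not measure the deletion. Values are log2 after robust multi-array averaging, with array medians between 6.27 and 6.32 and first quartiles between 4.97 and 5.01. The standard deviation among the 3 arrays of a genotype had a median of 0.0598 over all genes. *Cd3e* and *Cd4* averaged 13.07 and 12.30 on the dKO arrays, against 13.06 and 12.21 on the wild-type arrays, and *Cd8a* averaged 7.60 on the dKO arrays, against 7.77 on the wild-type arrays.

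*Nlrc5* fell in dKO cells, whereas no other member passed the test in either direction. The brightest row of *Nlrc5* read 10.22, 10.17 and 10.06 on the dKO arrays, against 11.12, 11.03 and 10.81 on the wild-type arrays. The genotypes were apart, with no dKO value reaching a wild-type one. The log2 fold change was -0.84 (standard error 0.08, 95% interval -1.02 to -0.66, adjusted p = 5.0e-05 from limma, n = 3 each), which left dKO cells with 55.8% of the wild-type signal. This row kept its call under each alternative that was run, with adjusted p-values between 5.9e-06 and 0.0213. In RNA from sorted cells, fewer cells of a type and less RNA per cell cannot be told apart. Thus 1 of the 8 members with a row of their own was called lower, where 10% of all genes were, and 0 were called higher, where 13.1% were (23.1% in either direction). No member was higher at an unadjusted p under 0.05 or with the methods' t-test (unpaired, per gene). The count of called members is therefore close to that of genes at large.

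The annotation gives 19 rows to *Nlrc5* alone, and these were compared as a check within the gene. In a fit over all 25254 rows, where 9.77% of rows were called lower, all 19 *Nlrc5* rows were called lower in dKO cells. Their log2 fold changes ranged from -0.96 to -0.46 with a median of -0.75, and the largest adjusted p was 0.0028. The rows spanned mean values from 7.49 to 10.57, and in each of them the 3 dKO arrays lay below the 3 wild-type arrays. In fold terms, the wild-type signal was between 1.38 and 1.94 times the dKO signal. Rows of 1 gene read the same RNA and are not replicates of one another. All 19 stayed called without any single array, and 11 did with the methods' t-test.

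**Figure D1:**
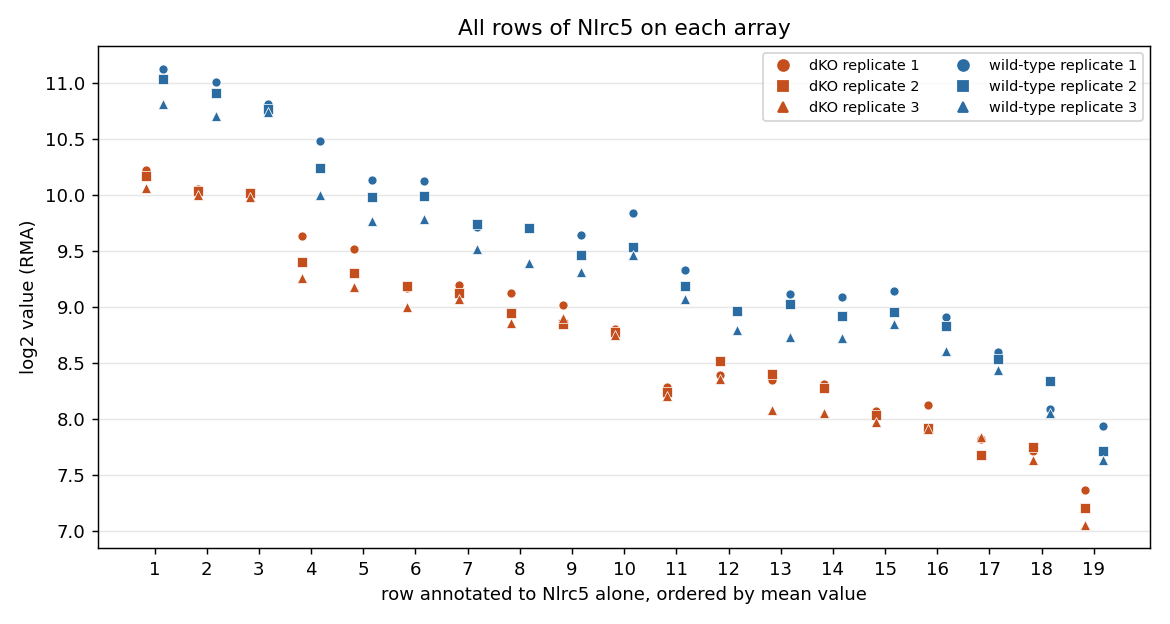
Log2 values of the 19 rows annotated to *Nlrc5* alone, ordered from bright to dim along the horizontal axis, with 1 point per array (dKO left, wild-type right). In every row the 3 dKO points sit below the 3 wild-type points.

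Of the 12 measured genes known to act on class I promoters, other than *Nlrc5*, 1 fell and 4 rose. Over all genes 10% were called lower and 13.1% higher, and each list count below stands beside these shares. *Irf1*, an interferon-induced activator of class I genes, read 9.97, 9.84 and 9.68 on the dKO arrays, against 10.33, 10.22 and 10.16 on the wild-type arrays (log2 fold change -0.41, adjusted p = 0.0032, limma). The genotypes did not overlap for this gene. The genes that rose encode the NF-Y subunit *Nfya* (log2 fold change 0.25), the NF-κB subunit *Rela* (0.20), the RFX subunit *Rfxap* (0.26) and the CREB relative *Atf1* (0.14), with adjusted p-values between 0.0063 and 0.047. *Atf1* lost its call when any of the 6 arrays was left out, with an adjusted p of up to 0.128. With the methods' t-test 0 of the 12 genes were called lower and 3 higher, and *Irf1* missed the threshold (adjusted p = 0.076). *Rfxap* missed it with that test and without replicate 1 of both genotypes (up to 0.116), and *Rela* without replicate 1 of both genotypes (0.068). For *Rfx5*, the DNA-binding subunit of the RFX complex, the difference was -0.06 (adjusted p = 0.41), and *Ciita*, the class II counterpart of *Nlrc5*, averaged 5.29 on the dKO arrays and 5.34 on the wild-type arrays. *Rfx5* and *Ciita* were picked from the list after their values had been seen. The list's median log2 fold change was 0.07, against 0.0057 over all genes.

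The promoters of the class I heavy chain and light chain genes are shown here because the pair of elements on which *Nlrc5* acts can be read in them. RefSeq windows (GRCm38.p6) of 300 bases, 250 before and 50 after the start of a gene, existed for 8 of the 10 members, all but *Tap2* and *Nlrc5*. The 250 bases before the start are given 5′ to 3′ on the strand of the gene, from chr17:34000348-34000597 (minus strand) for *H2-K1*, chr17:35262844-35263093 (plus strand) for *H2-D1*, chr2:122147437-122147686 (plus strand) for *B2m*, and chr17:37269984-37270233 (plus strand) for *H2-M3*, a nonclassical class I gene. Capitals mark TGACG, the core of the X2 box, followed after 20 bases by ATTGG, the Y box, and upstream of them the match to AANNGAAA, the core of an interferon-response element, read on either strand.
H2-K1: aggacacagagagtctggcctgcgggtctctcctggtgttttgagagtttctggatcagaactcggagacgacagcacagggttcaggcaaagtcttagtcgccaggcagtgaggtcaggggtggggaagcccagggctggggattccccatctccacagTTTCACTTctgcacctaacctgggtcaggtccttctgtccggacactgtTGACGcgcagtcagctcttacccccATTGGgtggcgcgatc
H2-D1: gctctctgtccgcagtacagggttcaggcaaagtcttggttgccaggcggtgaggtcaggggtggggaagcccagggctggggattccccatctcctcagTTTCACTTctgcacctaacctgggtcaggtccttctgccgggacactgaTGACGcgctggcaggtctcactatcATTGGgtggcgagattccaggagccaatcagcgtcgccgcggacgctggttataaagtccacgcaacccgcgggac
B2m: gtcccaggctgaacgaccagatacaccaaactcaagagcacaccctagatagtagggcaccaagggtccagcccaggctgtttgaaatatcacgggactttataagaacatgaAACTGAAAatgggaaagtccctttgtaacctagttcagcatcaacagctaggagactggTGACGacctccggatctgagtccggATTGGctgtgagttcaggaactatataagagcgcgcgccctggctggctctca
H2-M3: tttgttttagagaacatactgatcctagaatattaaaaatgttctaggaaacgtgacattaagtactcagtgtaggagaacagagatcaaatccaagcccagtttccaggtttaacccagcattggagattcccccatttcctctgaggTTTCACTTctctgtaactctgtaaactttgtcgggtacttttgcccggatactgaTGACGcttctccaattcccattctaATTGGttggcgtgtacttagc
TGACG with ATTGG at this spacing was searched on both strands after these sequences had been seen, and it was in 31 of 32851 windows (0.0944%). TGACG began 41 bases before the start of *H2-K1*, 101 before that of *H2-D1*, 78 before that of *B2m* and 46 before that of *H2-M3*. The windows of *Tap1*, *Tapbp*, *Psmb8*, *Psmb9* and *Psmb10* held no such pair, and neither did those of the nonclassical class I genes *H2-Q4* and *H2-T23*. Thus *H2-M3* was the only one of the 3 nonclassical genes looked up by name that had it. The pair was not looked up for *H2-T24*, *H2-Q2*, *H2-K2* and *H2-T10*, the H2 genes described below that fell. On their own, AANNGAAA was in 23.9% of windows, TGACG in 20.8% and CCAAT, the reverse complement of ATTGG, in 37.4%. The spaced pair, which contains TGACG and ATTGG, fixes more letters than either part and is rarer by its length alone. Its low count therefore gives no support to the pair as an element. *H2-K1* has 2 windows in the table, and the first is shown. A match describes letters and not a site in use.

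Neither heavy chain row was lower in dKO cells. Row A read 12.28, 12.19 and 12.09 on the dKO arrays, against 12.08, 12.06 and 11.97 on the wild-type arrays. Row B read 12.39, 12.22 and 12.13 on the dKO arrays, against 12.19, 12.11 and 12.13 on the wild-type arrays. In row A the dKO arrays all lay above the wild-type arrays, as they did in 21.3% of all genes, and in row B the genotypes overlapped. The log2 fold changes were 0.15 for row A (95% interval 0.02 to 0.28, adjusted p = 0.105) and 0.10 for row B (-0.05 to 0.25, adjusted p = 0.34), neither of which passed the test, where 12.9% of all rows were called higher. Row A passed it without dKO replicate 3 (0.20, adjusted p = 0.047) and in a fit with an intensity trend and robust variances (adjusted p = 0.036). Without dKO replicate 1, the differences were 0.10 for row A and 0.03 for row B, and after a further quantile normalization they were 0.07 (adjusted p = 0.47) and 0.01 (adjusted p = 0.91). After cyclic loess normalization they were 0.11 and 0.06. As classical class I genes resemble each other in sequence, these rows cannot be assigned to one of them.

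*B2m*, the light chain shared by all class I molecules, was the brightest of the 8 members with a row of their own. It read 12.65, 12.59 and 12.61 on the dKO arrays, against 12.56, 12.60 and 12.74 on the wild-type arrays. The genotypes overlapped, and the log2 fold change was -0.02 (95% interval -0.14 to 0.11, adjusted p = 0.89). *H2-M3*, whose promoter carries the same spaced pair, read 8.83, 8.63 and 8.56 on the dKO arrays, against 8.90, 8.71 and 8.66 on the wild-type arrays (log2 fold change -0.09, 95% interval -0.27 to 0.10, adjusted p = 0.54). The intervals of *B2m*, *H2-M3* and both heavy chain rows lay entirely above that of *Nlrc5*. *H2-M3* was picked after its value had been seen. The interval of *H2-T24*, for which the pair was not looked up, was -0.72 to -0.42 and overlapped that of *Nlrc5*. Whether any of these genes depends on *Nlrc5* in these cells was not tested.

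**Figure D2:**
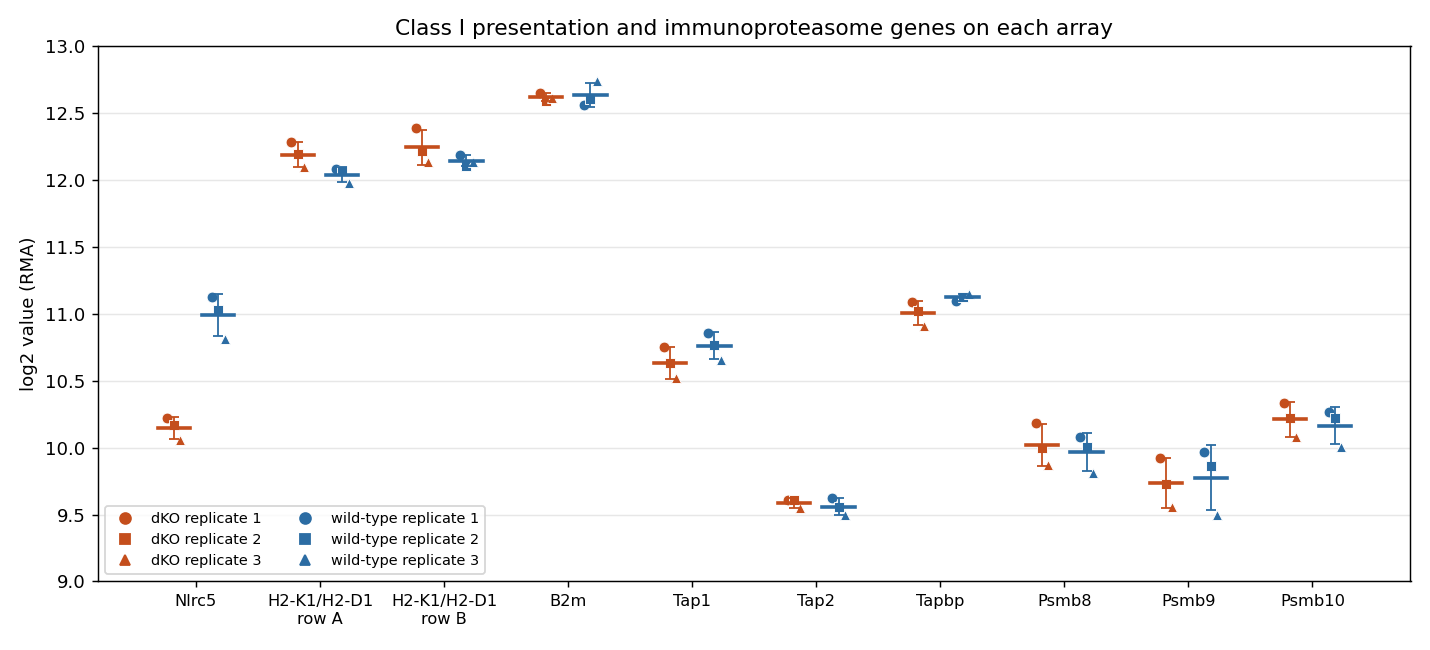
Log2 values of the members on each array, with dKO left of wild-type for each gene, horizontal bars for the mean and error bars for the SD of 3 arrays. *Nlrc5* stands apart with dKO values between 10.06 and 10.22 and wild-type values between 10.81 and 11.12, whereas the genotypes lie close together for the other genes.

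Other class I and class I-like genes moved in both directions, with 25 of 36 listed genes measured on rows of their own. Of these, 4 fell, all of them H2 genes outside the classical class I genes. *H2-T24* read 10.13, 9.96 and 9.85 on the dKO arrays, against 10.53, 10.55 and 10.56 on the wild-type arrays (log2 fold change -0.57, adjusted p = 2.3e-04, limma). The genotypes did not overlap, and the dKO signal was 67.4% of the wild-type signal. *H2-Q2*, *H2-K2* and *H2-T10* had log2 fold changes of -0.31, -0.38 and -0.35, with adjusted p-values of 0.0059, 0.014 and 0.040. *H2-K2* missed the threshold without wild-type replicate 1 (adjusted p = 0.0501), and *H2-T10* did so without dKO replicate 2 or 3 or wild-type replicate 2 or 3 (up to 0.123). The 2 genes that rose were *Cd1d1* (0.44, adjusted p = 0.0019) and *Cd1d2* (0.38, adjusted p = 0.017), which encode CD1d molecules that present lipids. *Cd1d2* missed the threshold without dKO replicate 2 or 3 or wild-type replicate 3 (up to 0.0741). The list's median was 0.03. With the methods' t-test 1 of these genes was called lower and 0 higher. Rows shared by several genes of the H2-Q and H2-T regions had log2 fold changes between -0.23 and 0.13, with adjusted p-values of 0.091 or more. One of them, annotated to *H2-T9*, *H2-T22* and *H2-T10*, averaged 10.17 on the dKO arrays and 10.23 on the wild-type arrays. Its genotypes overlapped (-0.05, adjusted p = 0.74, limma), so that this brighter row does not show the fall of *H2-T10*. Class I genes share long stretches of sequence, and the specificity of the probes was not tested.

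Neither chain of the transporter nor tapasin passed the test. *Tap1* read 10.75, 10.63 and 10.52 on the dKO arrays, against 10.86, 10.77 and 10.66 on the wild-type arrays. *Tap2* read 9.61, 9.61 and 9.55 on the dKO arrays, against 9.62, 9.56 and 9.50 on the wild-type arrays. The genotypes overlapped for both chains of the transporter. The log2 fold changes were -0.13 for *Tap1* (95% interval -0.29 to 0.03, adjusted p = 0.26) and 0.03 for *Tap2* (-0.08 to 0.14, adjusted p = 0.75). *Tapbp* read 11.08, 11.02 and 10.91 on the dKO arrays, against 11.10, 11.13 and 11.15 on the wild-type arrays. All its dKO values lay below the wild-type values, as did those of 16.5% of all genes, but the log2 fold change of -0.12 did not pass the test (95% interval -0.24 to 0.005, adjusted p = 0.17).

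*Tap1* and *Psmb9* are divergent neighbours, as shown by the interval between their starts, and the promoter is printed because the transporter and the immunosubunit start from the same stretch. *Psmb9*, *Tap1*, *Psmb8* and *Tap2* follow one another on chromosome 17 with no other protein-coding gene between them. The interval is chr17:34187331-34187555 in GRCm38.p6, 225 bases given 5′ to 3′ in the direction of *Tap1*, with CCAAT and TGACG in capitals.
Psmb9-Tap1: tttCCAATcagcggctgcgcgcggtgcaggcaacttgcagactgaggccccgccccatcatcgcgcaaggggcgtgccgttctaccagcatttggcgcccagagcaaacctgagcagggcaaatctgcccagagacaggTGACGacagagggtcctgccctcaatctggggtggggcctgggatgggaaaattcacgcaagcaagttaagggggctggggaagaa
Both elements are present, but ATTGG does not follow TGACG after 20 bases here. All 4 genes had intervals that include 0.

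Peptide loading partners and trimming enzymes were examined next, and of 16 measured genes 1 fell and 3 rose. *Lap3*, a leucine aminopeptidase of the cytosol, read 8.19, 8.38 and 8.31 on the dKO arrays, against 7.79, 7.65 and 7.40 on the wild-type arrays. It was the largest difference of this list, with a log2 fold change of 0.68 (adjusted p = 5.4e-04, limma) and no overlap of the genotypes. *Hspa5*, the endoplasmic reticulum chaperone BiP, rose by 0.24 (adjusted p = 0.0055), as did the puromycin-sensitive aminopeptidase gene *Npepps* by 0.24 (adjusted p = 0.023). *Tpp2*, which encodes a large cytosolic peptidase, fell by 0.20 (adjusted p = 0.014). *Npepps* missed the threshold without dKO replicate 2 or 3 or wild-type replicate 2 or 3 (up to 0.0727), and *Tpp2* without dKO replicate 2 or wild-type replicate 2 (up to 0.0596). The list's median was 0.09, and 12 genes did not pass the test. Among these, chosen after their values had been seen, calreticulin (*Calr*), which holds class I molecules in the loading complex, had -0.07, its disulfide isomerase partner *Pdia3* had 0.08 and the trimming peptidase *Erap1* had -0.08, with adjusted p-values between 0.33 and 0.37.

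No immunosubunit gene passed the test, and their intervals all included 0. *Psmb8* read 10.186, 9.998 and 9.870 on the dKO arrays, against 10.082, 10.006 and 9.808 on the wild-type arrays. *Psmb9* read 9.92, 9.73 and 9.55 on the dKO arrays, against 9.97, 9.86 and 9.50 on the wild-type arrays. *Psmb10* read 10.33, 10.22 and 10.08 on the dKO arrays, against 10.26, 10.22 and 10.01 on the wild-type arrays. In all 3 genes the genotypes overlapped, and replicate 1 was the highest array and replicate 3 the lowest in either genotype. The log2 fold changes were 0.05 for *Psmb8* (95% interval -0.15 to 0.25), -0.04 for *Psmb9* (-0.31 to 0.23) and 0.05 for *Psmb10* (-0.13 to 0.23), with adjusted p-values of 0.75, 0.87 and 0.75. The SD of *Psmb9* was 0.18 on the dKO arrays and 0.24 on the wild-type arrays, above the 90th percentile of 0.126 over all genes, so that its interval was the widest of the members.

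**Figure D3:**
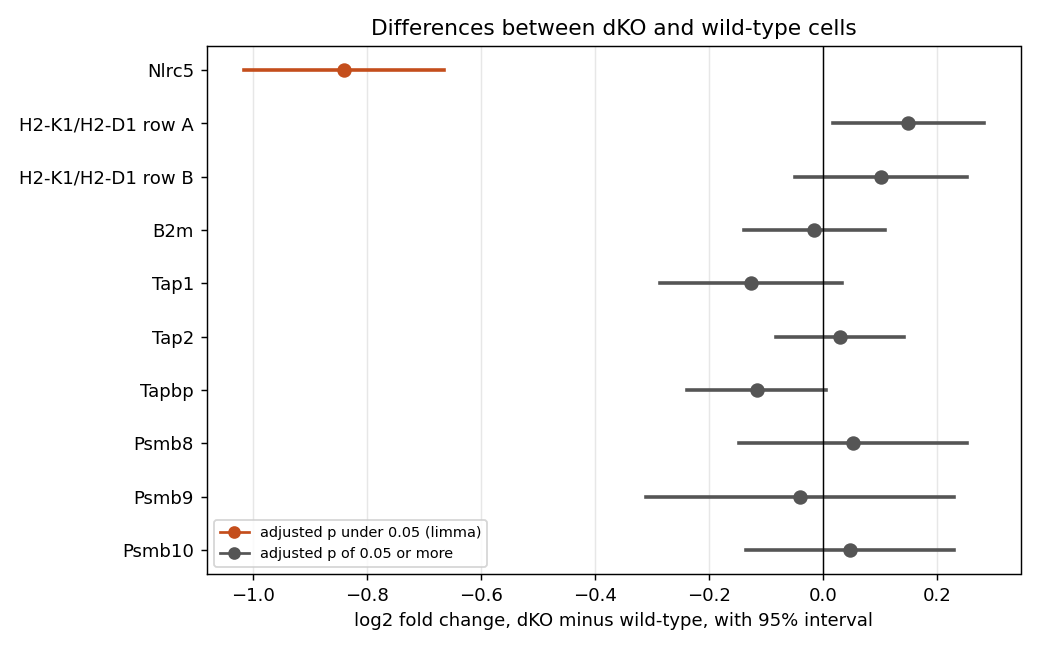
Log2 fold changes, dKO minus wild-type, with 95% intervals from limma for the members and the 2 rows shared by *H2-K1* and *H2-D1*. *Nlrc5* at -0.84 is the only member whose adjusted p was under 0.05.

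To compare each immunosubunit with the subunit it replaces, the difference of their log2 values was taken within each array, which shows unequal change and not the ratio of the subunits. *Psmb8* minus *Psmb5* was -1.49, -1.63 and -1.75 on the dKO arrays, against -1.42, -1.51 and -1.61 on the wild-type arrays. *Psmb9* minus *Psmb6* was 0.39, 0.09 and 0.08 on the dKO arrays, against 0.43, 0.28 and 0.14 on the wild-type arrays. *Psmb10* minus *Psmb7* was 0.57, 0.63 and 0.51 on the dKO arrays, against 0.72, 0.75 and 0.61 on the wild-type arrays. The dKO means were lower than the wild-type means by a similar amount in the 3 pairs, with differences of -0.11, -0.10 and -0.12, but the genotypes overlapped in each. The two-sided exact permutation p was 0.4, 0.5 and 0.2, or 0.5 for each after adjustment over the 3 pairs. With 3 arrays against 3, this test cannot give a p below 0.1.

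**Figure D4:**
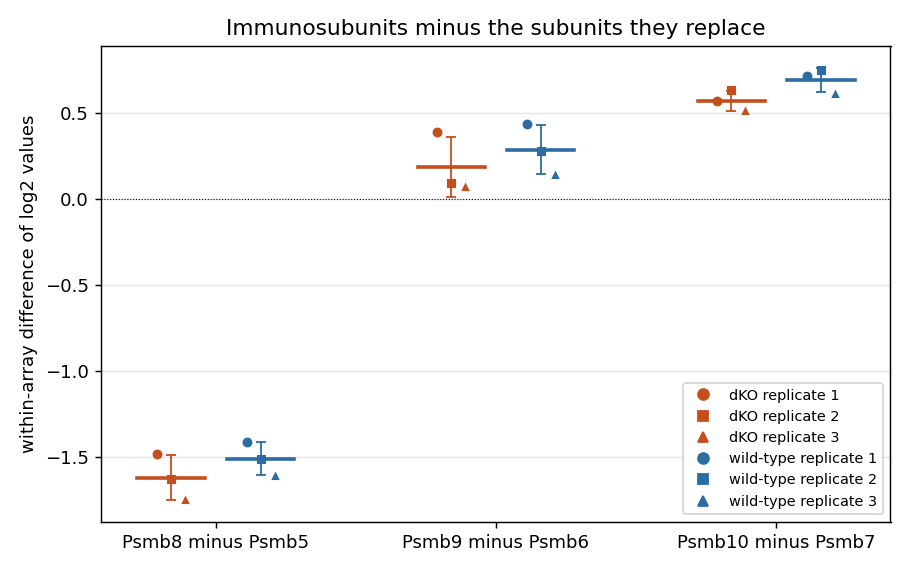
Within-array difference of log2 values between each immunosubunit and its constitutive counterpart, 1 point per array, dKO left of wild-type, with the mean and SD of 3 arrays. The dKO means lie 0.10 to 0.12 below the wild-type means, and the points of the genotypes overlap.

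In all 3 pairs the constitutive subunit had the larger log2 fold change. *Psmb5*, the chymotrypsin-like subunit, read 11.67, 11.63 and 11.62 on the dKO arrays, against 11.50, 11.52 and 11.41 on the wild-type arrays (log2 fold change 0.16, adjusted p = 0.036, limma). It was the only gene of its list of 4 that rose, its genotypes did not overlap, and it lost its call when any of the 6 arrays was left out (adjusted p up to 0.115). *Psmb7* and *Psmb6* had log2 fold changes of 0.17 and 0.06 (adjusted p = 0.096 and 0.61). *Psmb11*, the thymoproteasome subunit of cortical epithelial cells, was dim, with averages of 5.64 on the dKO arrays and 5.82 on the wild-type arrays. Its log2 fold change was -0.19 (adjusted p = 0.072), and it passed the test with wild-type replicate 2 left out (-0.26, adjusted p = 0.0147) and with the replicate number as a block (adjusted p = 0.0490). None of the 4 was called lower in the fit with all arrays and no block.

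The rest of the proteasome moved in small steps. Among 17 other core and assembly genes, 3 fell, namely the assembly factor *Pomp* (log2 fold change -0.29, adjusted p = 0.0018) and the subunit genes *Psma4* (-0.21, 0.0090) and *Psmb2* (-0.16, 0.043). A further 4 rose, namely *Psmb1* (0.23), *Psma1* (0.24), *Psma3* (0.30) and the assembly chaperone *Psmg2* (0.21), with adjusted p-values between 0.011 and 0.026. *Pomp*, whose product is needed for immunoproteasome assembly, read 8.88, 8.94 and 8.84 on the dKO arrays, against 9.21, 9.21 and 9.13 on the wild-type arrays, with no overlap. The calls of *Pomp*, *Psma4* and *Psma1* held without any single array. *Psmb1* missed the threshold without wild-type replicate 2 (0.0507), *Psmg2* without dKO replicate 1 or 2 or wild-type replicate 3 (up to 0.0685), *Psma3* without dKO replicate 2 or any wild-type array (up to 0.0796) and *Psmb2* without any array but dKO replicate 3 (up to 0.132). With the methods' t-test 2 of the 17 genes were called lower and 0 higher. The list had 2 genes higher without dKO replicate 2, wild-type replicate 2 or wild-type replicate 3.

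Of 5 genes for proteasome activators, 2 fell and 1 rose. *Psme2*, a subunit of the interferon-inducible activator PA28, read 11.30, 11.36 and 11.33 on the dKO arrays, against 11.53, 11.62 and 11.58 on the wild-type arrays (log2 fold change -0.24, adjusted p = 0.0040, limma), with no overlap. Its partner *Psme1* read 10.85, 10.73 and 10.63 on the dKO arrays, against 10.89, 10.88 and 10.73 on the wild-type arrays (-0.10, adjusted p = 0.35). *Psme4*, the activator PA200, fell by 0.23 (adjusted p = 0.013, and 0.0526 without dKO replicate 2), and *Psmf1*, an inhibitor of the proteasome, rose by 0.18 (adjusted p = 0.022, and up to 0.0695 without dKO replicate 1 or 3 or wild-type replicate 1 or 2). Of the 20 measured genes of the regulatory particle, which unfolds tagged proteins, 2 rose and 0 fell. *Psmd5*, an assembly chaperone of that particle, read 9.57, 9.54 and 9.53 on the dKO arrays, against 9.15, 9.12 and 9.10 on the wild-type arrays (0.42, adjusted p = 1.1e-04). *Psmd10* rose by 0.22 (adjusted p = 0.049), and missed the threshold without any array but wild-type replicate 1 (up to 0.161). At an unadjusted p under 0.05, 3 of the 20 genes were lower. The counts depended on the setting, as 1 gene was called higher and 2 lower after cyclic loess or a further quantile normalization, 5 higher and 0 lower among the brightest 50% of genes, 1 higher and 1 lower without dKO replicate 1, and 2 higher and 0 lower with the methods' t-test.

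Interferons induce *Nlrc5* and the other members, and the genes of their receptors and signalling pathway were therefore read beside them. Of 12 measured genes, 8 fell and 0 rose, where 10% of all genes were called lower and 13.1% higher. The median log2 fold change was -0.22. No gene was higher at an unadjusted p under 0.05 or with the methods' t-test, which called 3 genes lower. *Ifngr1*, the ligand-binding chain of the interferon-γ receptor, read 10.06, 9.96 and 9.99 on the dKO arrays, against 10.70, 10.83 and 10.78 on the wild-type arrays. Its log2 fold change was -0.77 (adjusted p = 6.6e-06, limma), or 58.7% of the wild-type signal. *Ifnar1*, a chain of the type I receptor, read 9.66, 9.74 and 9.72 on the dKO arrays, against 10.204, 10.144 and 10.247 on the wild-type arrays (-0.49, adjusted p = 7.2e-05). The other chain, *Ifnar2*, fell by 0.29 (adjusted p = 0.0053), and the feedback inhibitor *Socs1*, itself an interferon target, by 0.55 (adjusted p = 2.1e-05). In each of these 4 genes all dKO arrays lay below the wild-type arrays, as they did in 16.5% of all genes. Each of the 4 kept its call without any single array, but *Ifnar2* lost it with the methods' t-test (adjusted p = 0.066). The number of genes called lower in this list was between 6 and 8 without any single array.

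Interferon-stimulated genes outside the presentation pathway fell in part. Of 44 measured, 17 fell, 1 rose and 26 did not pass the test, with a median log2 fold change of -0.22. The shares over all genes were 10% called lower and 13.1% called higher. The gene *Oas3*, of the oligoadenylate synthetases that sense double-stranded RNA, read 7.81, 7.45 and 7.20 on the dKO arrays, against 8.63, 8.65 and 8.44 on the wild-type arrays (log2 fold change -1.09, adjusted p = 2.3e-04, limma). Its relative *Oas2* fell by 0.92 (adjusted p = 3.3e-04), the nucleic acid sensor *Zbp1* by 0.81 (6.0e-04) and the antiviral GTPase *Mx2* by 0.78 (1.1e-04). *Oasl1* rose, with 9.21, 9.14 and 9.06 on the dKO arrays, against 8.88, 8.76 and 8.56 on the wild-type arrays (0.41, adjusted p = 0.0040). The methods' t-test called 4 of the 44 genes lower and 0 higher. The count of genes that fell turned on single arrays, as it was 27 without dKO replicate 1, 10 without dKO replicate 2, 11 without dKO replicate 3, 11 without wild-type replicate 1, 10 without wild-type replicate 2 and 15 without wild-type replicate 3. On the dKO arrays, replicate 1 was the highest in 43 of the 44 genes and in 31.0% of all genes, and on the wild-type arrays replicate 1 was the highest in 31 of the 44 and in 34.2% of all genes.

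**Figure D5:**
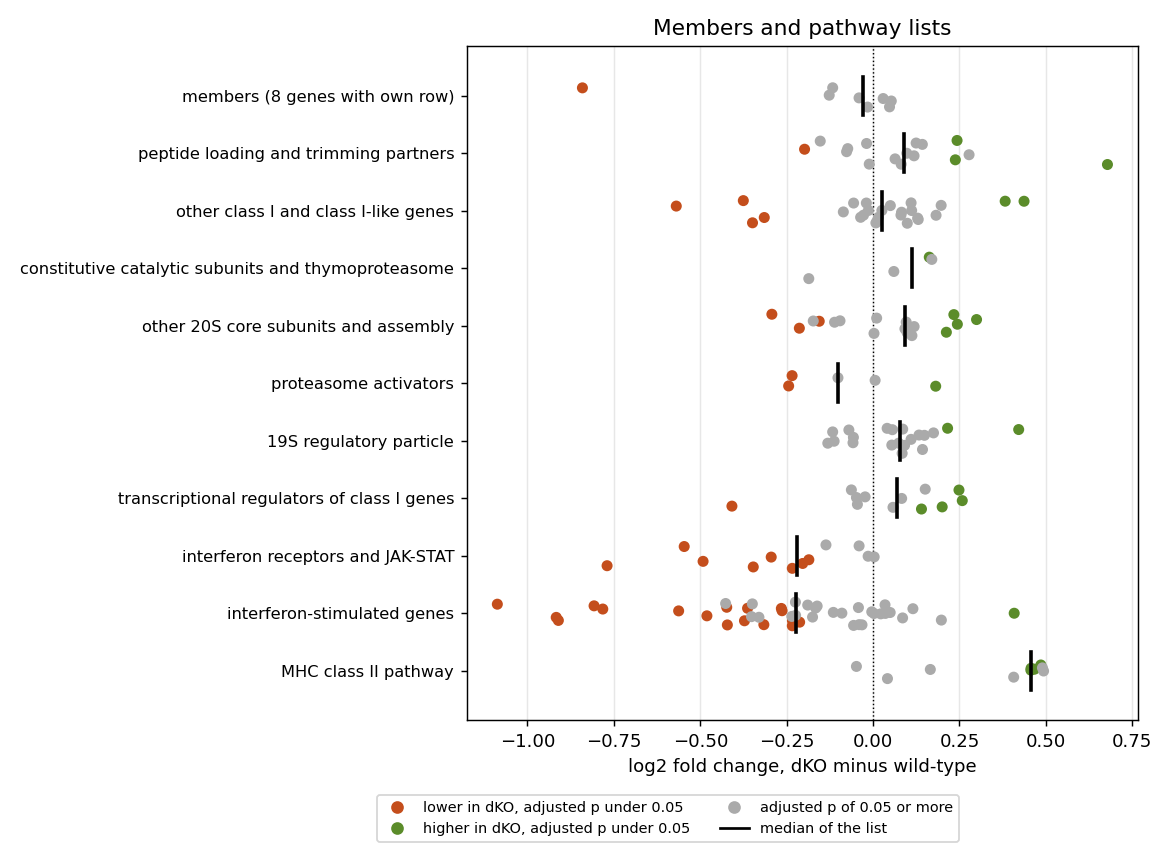
Log2 fold changes, dKO minus wild-type, of the members and of 10 lists of related genes, 1 point per gene, coloured by direction where the adjusted p was under 0.05, with a black line at the median of each list. The medians of the interferon receptor and interferon-stimulated lists lie at -0.22, that of the class II list at 0.46, and that of the members at -0.03.

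For the members, the same arrays were high or low. Replicate 1 was the highest dKO array in 7 of the 8 members and the highest wild-type array in 6, and replicate 3 was the lowest in 7 and 6. Without dKO replicate 1, the log2 fold change of *Nlrc5* was -0.88 (adjusted p = 2.7e-04), that of *Tap1* -0.19 (0.105) and that of *Tapbp* -0.16 (0.089), and no further member passed the test. Without dKO replicate 3, *Tap1* had -0.07 (0.58) and *Tapbp* -0.07 (0.41), and without wild-type replicate 1, *Tap1* had -0.08 (0.54). Without replicate 1 of both genotypes, *Nlrc5* had -0.81 (6.2e-04).

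Genes for presentation on MHC class II were read as the neighbouring pathway. Of 10 measured genes 4 rose and 0 fell, where 13.1% of all genes were called higher and 10% lower. *H2-DMa*, part of the peptide editor of class II, read 10.23, 10.23 and 10.15 on the dKO arrays, against 9.75, 9.83 and 9.67 on the wild-type arrays (log2 fold change 0.46, adjusted p = 2.3e-04, limma). The genes *H2-Oa* and *H2-Ob*, which encode the inhibitor of that editor, rose by 0.47 and 0.46 (adjusted p = 0.0026 and 0.0023), and the protease gene *Ctss* by 0.49 (0.0020). No gene of this list was lower at an unadjusted p under 0.05 or with the methods' t-test, and the median was 0.46. The methods' t-test called 1 gene higher, with *H2-Oa*, *H2-Ob* and *Ctss* at adjusted p-values of 0.078, 0.072 and 0.071. *Cd74*, the invariant chain, read 7.73, 7.04 and 6.36 on the dKO arrays, against 6.83, 6.62 and 6.22 on the wild-type arrays, and *H2-Aa* read 7.11, 6.24 and 5.93 on the dKO arrays, against 6.19, 6.08 and 5.80 on the wild-type arrays. For both, dKO replicate 1 was the highest of all 6 arrays and the test was not passed (adjusted p = 0.27 and 0.29). B cell markers lay between 5.38 and 5.55 as the median of 7 genes on any array, and those of macrophages and dendritic cells between 5.38 and 5.48 as the median of 12 genes, most of them dim. The 12 markers of macrophages and dendritic cells moved in both directions. *Lyz2*, the lysozyme gene of macrophages, read 6.75, 6.02 and 5.48 on the dKO arrays, against 5.35, 5.43 and 5.03 on the wild-type arrays. Its log2 fold change was 0.81 (adjusted p = 0.043, limma). Its dKO arrays had the order seen for *Cd74* and *H2-Aa*, which was also that of *Nlrc5*, *Tap1*, *Tapbp* and the immunosubunit genes. Under the alternatives run, the adjusted p of *Lyz2* reached 0.274. *Cst3* rose by 0.21 (adjusted p = 0.023), *Itgam* and *Cd68* fell by 0.78 and 0.31 (6.8e-05 and 0.0032), and 8 markers did not pass the test. The part of these markers in the result was not tested.

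Over the 10 pathway lists, 162 genes other than the members were measured, of which 35 fell and 22 rose. The share called was 35.2%, against 23.1% of all genes, and the median log2 fold change was -0.00061. The share over all genes includes many dim genes, and among the 9876 brightest genes, fitted alone, 1887 fell and 2634 rose. The 2 shares are therefore not a like comparison. With the methods' t-test 12 pathway genes fell and 8 rose. The number that fell was 22 without dKO replicate 2 and 45 without dKO replicate 1.

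Markers of the sorted cells and of other cells were read on the same arrays. Of 11 T cell markers, 4 fell (*Thy1*, *Cd5*, *Zbtb7b* and *Lat*, by 0.61, 0.43, 0.27 and 0.15 on the log2 scale) and *Cd28* rose by 0.24, while 6 did not pass the test, and the median log2 fold change of the list was 0.04. *Lat* lost its call when any array was left out (up to 0.106), and *Zbtb7b* without dKO replicate 1 or wild-type replicate 2 or 3 (up to 0.0706). Of 8 markers of double-positive and CD8 lineage thymocytes, 3 rose, led by *Dntt* (1.52) and *Cd8b1* (0.54) beside *Cd1d1*, and 2 fell, namely *Arpp21* (-0.25) and *Rag1* (-0.55). Both of these last calls were lost without dKO replicate 2 or 3 or wild-type replicate 1 or 2 (up to 0.150). Of the markers of macrophages and dendritic cells, *Itgam* and *Cd68* fell by 0.78 and 0.31, and *Cst3* and *Lyz2* rose by 0.21 and 0.81, of which *Cst3* and *Lyz2* lost their calls without single arrays (up to 0.0728 and 0.126). Of B cell markers, *Cd79b* fell by 0.63, and of NK cell markers, *Nkg7* fell by 0.54. Of thymic epithelial markers, *Ccl25* and *Cldn4* fell by 0.40 and 0.21 and *Epcam* rose by 0.28. Of neutrophil markers, *Elane* rose by 0.19 and lost its call without single arrays (up to 0.124), and of 3 erythroid markers 0 were called, also at an unadjusted p under 0.05 and with the methods' t-test. With the methods' t-test, *Cd5*, *Cd68*, *Nkg7*, *Ccl25* and *Cd1d1* also missed the threshold (adjusted p = 0.068, 0.0508, 0.111, 0.066 and 0.063). *Cd28* did so without replicate 1 of both genotypes (0.0545). The part of these differences in the values of the members was not tested.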

How the data were processed

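Expression was measured on 6 Affymetrix arrays, Mouse Gene 1.0 ST according to the study's methods, although the design text names another type. The deposited log2 values, 1 column per array, were made by the authors with Partek and RMA (versions not given in the sources used here), which corrects the background, normalizes quantiles between arrays and summarizes probes to 1 value per row. A shift of most genes in one direction would thereby be hidden, and differences of dim genes are compressed. The number of arrays limits the precision.

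Rows were named through the platform annotation, updated by Entrez identifier with a RefSeq table (GRCm38.p6) used for names, neighbours and promoter windows. Of 25254 rows, 21496 had 1 symbol (21415 found in the RefSeq table), 1565 had several and 2193 had none. For the 938 genes with more rows than 1, the brightest row by mean was kept, which left 19752 genes. All value columns were used. Fits with genotype as the only term used limma 3.58.1 in R 4.3.3, and p-values were adjusted by Benjamini-Hochberg over the 19752 genes (threshold 0.05). Rows with several symbols, and the 19 rows of *Nlrc5*, were tested in a fit over all rows. Fold changes are dKO minus wild-type. Members, lists and tests were chosen with earlier results of these data known. All members were named, and of each other list up to 4 genes with the smallest p and the genes behind a count of 5 or fewer. Genes named outside this rule are said to have been chosen after their values were seen, as *H2-M3*, *Cd74* and *H2-Aa* were. The fit was first tested on simulated data. Alternatives were a further quantile or cyclic loess normalization, the 14814 or 9876 brightest genes, the mean of a gene's rows, all rows in the fit, each array left out, the replicate number as a block, the methods' t-test per gene and robust variances with an intensity trend. Leaving out replicate 1 of both genotypes was added after seeing the data. Python 3.11.15 and matplotlib 3.10.9 served for the figures.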

Additional observations from a re-analysis of the deposited data

How the results depend on the processing

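With 3 arrays of each genotype, the 95% intervals of the 7 measured members other than *Nlrc5* all included 0, so that the sign of their differences is not settled. *Nlrc5* kept its direction and its call under every alternative run, with log2 fold changes from -0.93 to -0.72. The other 7 measured members were never called. After cyclic loess normalization, *B2m* turned to 0.0101 and *Tap2* to -0.00673. With single arrays left out, the log2 fold change ranged from -0.0517 to 0.0354 for *B2m* (-0.0680 without replicate 1 of both genotypes), -0.00241 to 0.0604 for *Tap2*, -0.0313 to 0.126 for *Psmb8*, -0.179 to 0.0550 for *Psmb9*, -0.0308 to 0.115 for *Psmb10* and -0.00726 to 0.105 for *Psmb6*, each of them changing sign. The within-array differences between immunosubunits and constitutive subunits kept their sign under the alternatives run, ranging from -0.16 to -0.07 for *Psmb10* minus *Psmb7*, from -0.18 to -0.05 for *Psmb8* minus *Psmb5* and from -0.20 to -0.03 for *Psmb9* minus *Psmb6*. The count of pathway genes that fell, 35, was 12 with the methods' t-test and between 22 and 45 with single arrays left out, and the count that rose, 22, was 8 with the methods' t-test, between 15 and 20 with single arrays left out and 14 without replicate 1 of both genotypes. The count of *Nlrc5* rows that fell, 19, was 11 with the methods' t-test. The causes of these changes were not tested. The labels do not say whether replicate numbers pair the samples. Over all genes, the deviations of same-numbered arrays from their genotype means correlated at 0.0993, 0.0243 and 0.0697. Replicate 2 of dKO correlated best with wild-type replicate 3 (0.0395). Correlations this weak over all genes cannot settle the pairing, and most members shared their highest and lowest replicate numbers between genotypes. With the replicate number as a block, 1 member fell and 0 rose, 37 pathway genes fell and 25 rose, and *Nlrc5* kept its log2 fold change of -0.84 (adjusted p = 2.6e-05).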
